A study of Mus musculus with 10 samples.

Results

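The genes described here encode ion channels, their auxiliary subunits and the sodium/proton exchangers in cultured mouse lymphatic endothelial cells (LECs), which form the inner wall of lymphatic vessels. They were chosen by symbol. The pattern took the potassium channel genes (Kcn), the sodium channel genes (Scn), the voltage-gated calcium channel genes (Cacna, Cacnb, Cacng), the TRP channel genes (Trpc, Trpm, Trpv), the ClC genes (Clcn), the anoctamins (Ano), Piezo1, Piezo2, Orai1, Orai2, Orai3 and the Slc9a genes. It found 156 of the 16251 genes in the deposited table, of which 66 had enough reads to be tested and 90 did not. Messenger RNA had been sequenced in 10 libraries of primary mouse LECs. In 5 libraries the cells had been transfected with 50 nM of a small interfering RNA (siRNA) duplex against Vegfr2, the VEGF receptor encoded by Kdr, and RNA was taken 48 h later. The other 5 libraries were labelled control. The sources used here give no strain, age or tissue of origin. The labels give both groups the same treatment tag and do not say whether control cells received another siRNA or whether replicates were separate cultures, so the p-values reflect only the scatter among these libraries, possibly technical scatter.

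Ion channels let ions cross a membrane down their gradients through a gated pore, and their auxiliary subunits set where the pore sits and how it opens. In endothelial cells, potassium channels hold the membrane potential negative, which drives calcium entry through Orai, TRP and Piezo channels. Sodium/proton exchangers use the sodium gradient to export protons from the cytosol or to set the pH inside endosomes and Golgi vesicles. Voltage-gated sodium and calcium channels are best known from neurons and muscle.

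The library totals ran from 17946483 to 18239260 estimated counts. The siRNA target Kdr was at 186 ± 14.8 CPM in siRNA cells and 1323 ± 66.3 CPM in control cells (SD, n = 5 each, where CPM is the count scaled to a common library size), and a two-sided exact permutation test gave p = 0.00794, the smallest that 252 assignments allow. All 8 lymphatic endothelial markers listed were above the count filter, 1 of them higher and 6 lower in siRNA cells. The 9 neuronal markers in the table summed to between 168.9 and 195.6 CPM in siRNA libraries and between 37.2 and 45.1 CPM in control libraries. Of these 9, 5 were tested and 4 rose, among them the neurofilament genes Nefm and Nefl, whereas the neuronal nuclear marker Rbfox3 had 8 counts in the siRNA libraries together and 43 in the control libraries together. Of 4 epithelial markers 1 was tested, the keratin gene Krt18, which rose, and the 4 summed to between 7.68 and 8.73 CPM in siRNA libraries and between 1.22 and 2.46 CPM in control libraries. Of the 10 neuronal and 6 epithelial markers listed, 9 and 4 were in the deposited table. None of these was at 0 in every library, but genes without any counts may have been left out of it. Most muscle, fibroblast and myeloid markers were under the filter. In bulk RNA, fewer cells of a type and less RNA per cell cannot be told apart, and the part of these markers in the results below was not tested.

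Most tested channel and exchanger genes differed between siRNA and control cells, by small amounts and in both directions. Of the 66 tested members, 18 rose and 31 fell with an adjusted p under 0.05 in edgeR's quasi-likelihood test, adjusted over all 12161 genes tested, and 17 did not pass. The called share was 74.2% of the members, against 71.3% of all genes tested. Upward calls made up 27.3% of the members against 36.1% of all genes, and downward calls 47.0% against 35.2%. The libraries of the 2 groups did not overlap for 42 members (63.6%), of which 14 were higher and 28 lower in every siRNA library, against 57.0% of all genes. The median log2 fold change of the tested members was −0.10, where the median of all genes was −0.0019. A change of at least 2-fold was reached by 8 called members (4 higher, 4 lower), against 4.61% of all genes, and 35 of the 49 called members changed by less than 1.5-fold. When the test asked for a change of more than 1.5-fold (glmTreat), 10 members passed (5 higher, 5 lower), against 8.56% of all genes. Since the group was chosen with results of this same contrast known, these shares are given as a description and nothing is read from them.

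**Figure D1:**
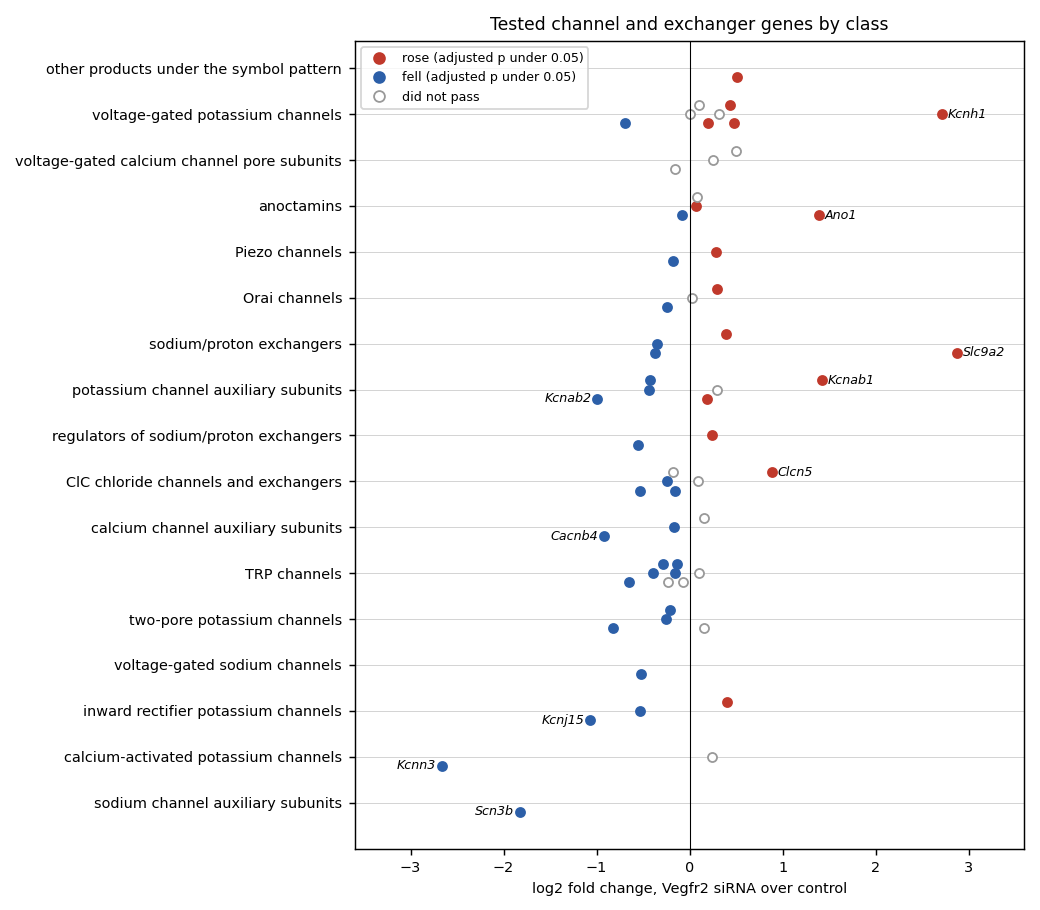
Log2 fold change of siRNA over control for 61 tested genes, 1 row per class and 1 point per gene, red for genes that rose, blue for genes that fell and open for genes that did not pass. Slc9a2 and Kcnh1 lie furthest to the right (2.88 and 2.72), and Kcnn3 and Scn3b furthest to the left (−2.67 and −1.83).

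Levels of different genes were compared per kilobase of the longest annotated transcript. By this measure the most abundant member in siRNA cells was Slc9a3r2, a PDZ scaffold that anchors sodium/proton exchangers, with 81.9 ± 2.83 CPM per kilobase in siRNA cells and 69.4 ± 0.845 in control cells. It held position 1 in siRNA cells and 2 in control cells. The mechanically gated channel Piezo1 held position 2 in siRNA cells and 3 in control cells, the phospholipid scramblase Ano6 positions 3 and 4, and the channel kinase Trpm7 positions 6 and 7. The genes with the largest changes were far from the top. Slc9a2 was at position 30 in siRNA cells and 51 in control cells, Kcnh1 at 36 and 56, Kcnn3 at 51 and 31, and Scn3b at 49 and 35.

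**Figure D2:**
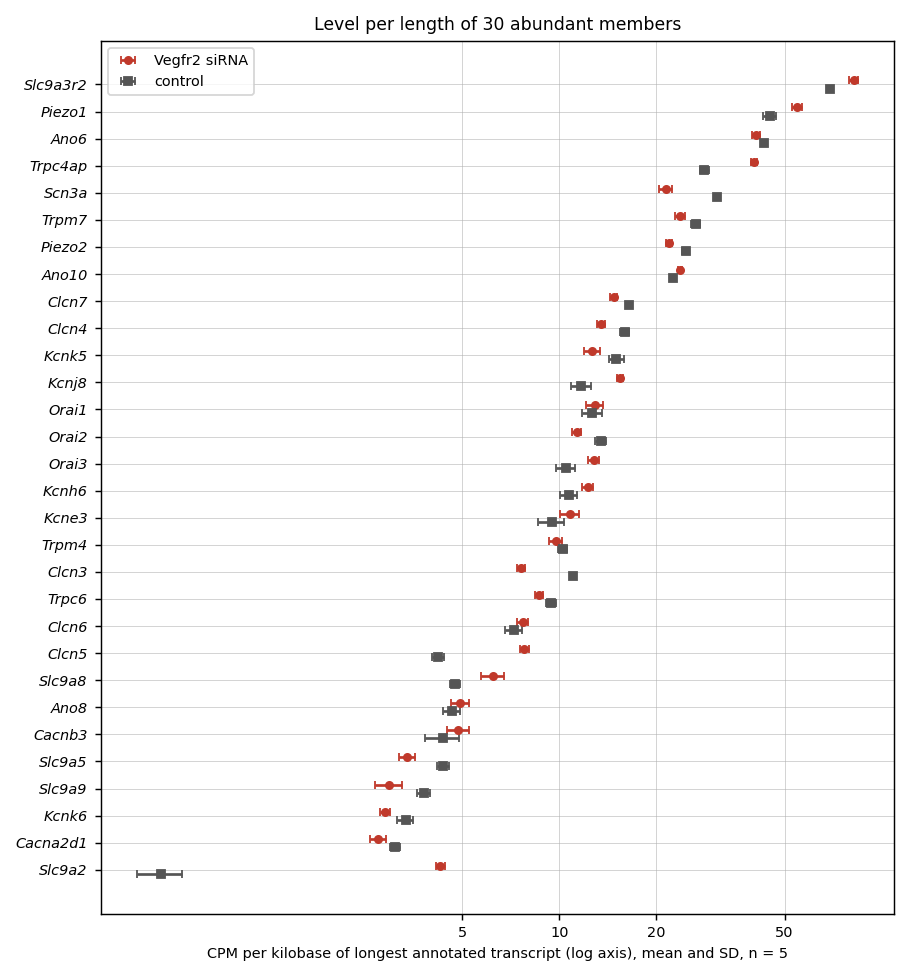
Mean level with SD (n = 5) of 30 abundant members in CPM per kilobase of the longest annotated transcript, on a log axis, red circles for siRNA cells and grey squares for control cells. The 2 groups' means are close for most genes, and they lie far apart for Slc9a2 and Clcn5, both higher in siRNA cells.

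The potassium channel genes changed in both directions, and the largest rise and the largest fall among them were those of Kcnh1 and Kcnn3. Kcnh1 encodes the ether-a-go-go channel Kv10.1, a voltage-gated pore best known from brain. It stood at 14.6, 16.2, 14.1, 16.0 and 17.6 CPM in the siRNA libraries and 2.01, 2.17, 2.61, 2.65 and 2.47 CPM in the control libraries. Every siRNA library was above every control library, and the means were 15.7 ± 1.39 CPM in siRNA cells and 2.38 ± 0.280 CPM in control cells (SD, n = 5 each), a 6.57-fold difference with a log2 fold change of 2.72 (SE 0.094). Kcnn3 encodes the small-conductance calcium-activated channel SK3, which in vascular endothelium opens as cytosolic calcium rises and hyperpolarizes the cell. Its level was 5.48, 4.83, 5.21, 5.60 and 4.46 CPM in the siRNA libraries and 33.7, 33.1, 30.8, 28.2 and 36.7 CPM in the control libraries. Every siRNA library was below every control library, with means of 5.11 ± 0.471 CPM in siRNA cells and 32.5 ± 3.21 CPM in control cells, and the log2 fold change was −2.67 (SE 0.075), 6.35-fold lower. Kcnh1, Kcnn3, Slc9a2 and Scn3b are the genes whose large differences led to the choice of this group, so their values are given as a description, with no test.

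No RefSeq promoter was found for Slc9a2 or Scn3b. The promoters of Kcnh1 and Kcnn3, the potassium channel genes with the largest rise and fall, are shown. Each window runs from 250 bases before to 50 bases after a RefSeq start on GRCm38.p6, on the plus strand (chr1:192190527-192190826 for Kcnh1, whose gene spans chr1:192189144-192510159, and chr3:89519914-89520213 for Kcnn3, whose gene spans chr3:89520164-89672494), and capitals mark GC boxes (GGGCGG, either strand) and CCAAT boxes (CCAAT, either strand).
Kcnh1: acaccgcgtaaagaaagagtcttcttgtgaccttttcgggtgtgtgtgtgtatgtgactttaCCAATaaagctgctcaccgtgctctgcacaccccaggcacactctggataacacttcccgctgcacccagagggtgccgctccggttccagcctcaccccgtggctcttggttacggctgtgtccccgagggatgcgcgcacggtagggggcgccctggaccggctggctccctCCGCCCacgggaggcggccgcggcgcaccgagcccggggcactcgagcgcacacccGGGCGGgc
Kcnn3: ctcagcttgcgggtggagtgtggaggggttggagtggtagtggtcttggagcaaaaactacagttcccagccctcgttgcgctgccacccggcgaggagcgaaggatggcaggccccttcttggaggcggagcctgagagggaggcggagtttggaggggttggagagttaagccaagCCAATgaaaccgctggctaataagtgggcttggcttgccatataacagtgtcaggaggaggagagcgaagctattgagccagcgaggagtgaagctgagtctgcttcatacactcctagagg
The 2 windows are placed differently. The Kcnh1 window lies wholly inside the gene span, at a RefSeq start downstream of where that span begins. The Kcnn3 window crosses the start of its gene span. The Kcnh1 window holds 2 GC boxes and 1 CCAAT box and is 66.0% G and C. The Kcnn3 window holds 0 GC boxes and 1 CCAAT box and is 57.7% G and C. Neither window has a TATA box (TATAAA), an AP-1 site (TGANTCA) or a cAMP response element (TGACGTCA) on either strand. GGGCGG occurs in 46.3% of 160 promoters of the members and in 35.7% of all 32851 promoters in the table, and CCAAT in 27.5% and 37.4%. RefSeq promoters were found for 119 of the 156 members. Neither motif overlaps the other here, and a match describes letters in the window, not bound protein.

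Of the 30 voltage-gated potassium channel genes 8 were tested, of which 4 rose (Kcnh1 among them), 1 fell and 3 did not pass. Kcnq1, the Kv7.1 pore of cardiac muscle and epithelia, fell to 3.67 ± 0.432 CPM in siRNA cells, against 5.93 ± 0.288 CPM in control cells (SD, n = 5 each), a log2 fold change of −0.69 with an SE of 0.10 (adjusted p = 8.50e-08) with no overlap of the libraries. Kcnd3, the A-type channel Kv4.3, rose (log2 fold change 0.43, SE 0.13, adjusted p = 0.00292), although its siRNA and control libraries overlapped. Kcnf1, an electrically silent subunit that modifies Kv2 channels, rose (log2 fold change 0.47, SE 0.13, adjusted p = 0.00142). Kcnh6, of the ERG family, rose (log2 fold change 0.19, SE 0.043, adjusted p = 0.000101), but its reads were divided with other genes in all 10 libraries and its level is uncertain. Kcnd1, Kcnc2 and Kcnh2 had log2 fold changes of 0.0044, 0.10 and 0.32 and did not pass.

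Beside Kcnn3, only 1 other calcium-activated potassium channel of the 6 in the table was tested. Kcnma1, the large-conductance BK channel, had 2.05 ± 0.379 CPM in siRNA cells and 1.74 ± 0.240 CPM in control cells, and its log2 fold change of 0.24 (edgeR adjusted p = 0.186) did not pass. Kcnn4, the intermediate-conductance channel KCa3.1 that acts together with SK3 in arterial endothelium, was too low to test, with 14 counts in the siRNA libraries together and 6 in the control libraries together. The sodium-activated channel Kcnt1 had 1 count in the siRNA libraries together and 16 in the control libraries together.

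Of 11 inward rectifiers 3 were tested, of which 1 rose and 2 fell. Kcnj15 (Kir4.2), which carries inwardly rectifying current mainly in kidney and other epithelia, stood at 6.02, 5.70, 5.98, 5.21 and 4.90 CPM in the siRNA libraries and 11.7, 12.9, 12.5, 10.9 and 10.3 CPM in the control libraries. The groups did not overlap, and the log2 fold change was −1.07 with an SE of 0.083 (adjusted p = 4.02e-15). Kcnj2 (Kir2.1), the strong inward rectifier that responds to flow in arterial endothelium, fell to 2.71 ± 0.179 CPM in siRNA cells, against 3.93 ± 0.474 CPM in control cells, a log2 fold change of −0.53 with an SE of 0.12 (adjusted p = 0.000144). Kcnj8 (Kir6.1), the pore of the vascular ATP-sensitive potassium channel, rose to 39.2 ± 0.893 CPM in siRNA cells, against 29.8 ± 2.14 CPM in control cells (SD, n = 5 each), a log2 fold change of 0.40 with an SE of 0.044 (adjusted p = 1.24e-10). Kcnj8 libraries did not overlap, with siRNA levels of 38.2 CPM or more and control levels of 31.5 CPM or less.

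Of the tandem-pore (K2P) channels, which carry background potassium current, 4 of 10 were tested, 3 fell and 1 did not pass. Kcnk9 (TASK-3), an acid-sensitive leak channel, stood at 16.3, 15.7, 15.2, 14.3 and 12.9 CPM in the siRNA libraries and 26.3, 23.0, 28.1, 24.7 and 30.2 CPM in the control libraries. Every siRNA library was lower than every control library, and the log2 fold change was −0.83 with an SE of 0.07 (adjusted p = 7.67e-11). Kcnk5 (TASK-2), the most abundant potassium channel gene per length in control cells, fell by less, with 42.8 ± 2.42 CPM in siRNA cells and 50.9 ± 2.73 CPM in control cells and a log2 fold change of −0.25 with an SE of 0.041 (adjusted p = 8.83e-07). Kcnk6 (TWIK-2) fell too (log2 fold change −0.21, SE 0.064, adjusted p = 0.00386). Kcnk2 (TREK-1), a mechanically gated leak channel, had a log2 fold change of 0.16 (edgeR adjusted p = 0.309) and did not pass.

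The auxiliary potassium channel subunits held the opposite changes of a pair of close relatives. Kcnab1, a Kv beta subunit that speeds the inactivation of Kv1 channels, rose to 2.65 ± 0.447 CPM in siRNA cells, against 0.979 ± 0.306 CPM in control cells (SD, n = 5 each), a log2 fold change of 1.43 with an SE of 0.18 (adjusted p = 4.61e-09). Kcnab2, the beta subunit that carries Kv1 channels to the surface, fell to 0.823 ± 0.229 CPM in siRNA cells, against 1.65 ± 0.382 CPM in control cells, a log2 fold change of −0.996 with an SE of 0.21 (adjusted p = 6.92e-05). Both genes were low, and in both the groups' libraries did not overlap. Kcne3, a single-span partner of Kcnq1, rose (log2 fold change 0.19, SE 0.067, adjusted p = 0.0127), with overlapping libraries, and the call was lost without control replicate 5 (adjusted p = 0.0511) or without siRNA replicate 5 (adjusted p = 0.0548). Kcnip1 and Kcnip4, calcium-binding partners of Kv4 channels, fell by 0.44 (adjusted p = 0.0126) and 0.43 (adjusted p = 0.002) on the log2 scale. The Kcnip1 call was lost without control replicate 3 (adjusted p = 0.0608), and reads of Kcnip4 were divided with other genes in all 10 libraries. Kcnab3 did not pass (log2 fold change 0.29, adjusted p = 0.12), but did without control replicate 2 (adjusted p = 0.0288). Over all 74 potassium channel and auxiliary genes, 23 were tested, of which 7 rose, 10 fell and 6 did not pass.

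Of the sodium channel beta subunit genes 2 of 3 were tested, and both were lower in siRNA cells. Scn3b, the beta 3 subunit that binds the pore without a covalent link, stood at 3.12, 2.96, 3.13, 3.07 and 2.59 CPM in the siRNA libraries and 10.0, 10.7, 10.1, 10.8 and 11.3 CPM in the control libraries. No siRNA library reached the lowest control library, and the means of 2.97 ± 0.227 CPM in siRNA cells and 10.6 ± 0.519 CPM in control cells gave a log2 fold change of −1.83 (SE 0.091), 3.55-fold lower. The gene lies at chr9:40269216-40291618 on GRCm38.p6.

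Of the 10 pore-forming sodium channel genes 2 were tested, of which 1 rose and 1 fell. Scn3a, the Nav1.3 channel of the embryonic brain, stood at 202, 217, 209.7, 196 and 197 CPM in the siRNA libraries and 302, 296, 289.9, 293 and 289.7 CPM in the control libraries. All siRNA libraries were below all control libraries, and the log2 fold change was −0.53 with an SE of 0.027 (adjusted p = 1.65e-21). Scn2a, the adult brain channel next in count, had 34 counts in the siRNA libraries together and 33 in the control libraries together and was not tested.

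**Figure D3:**
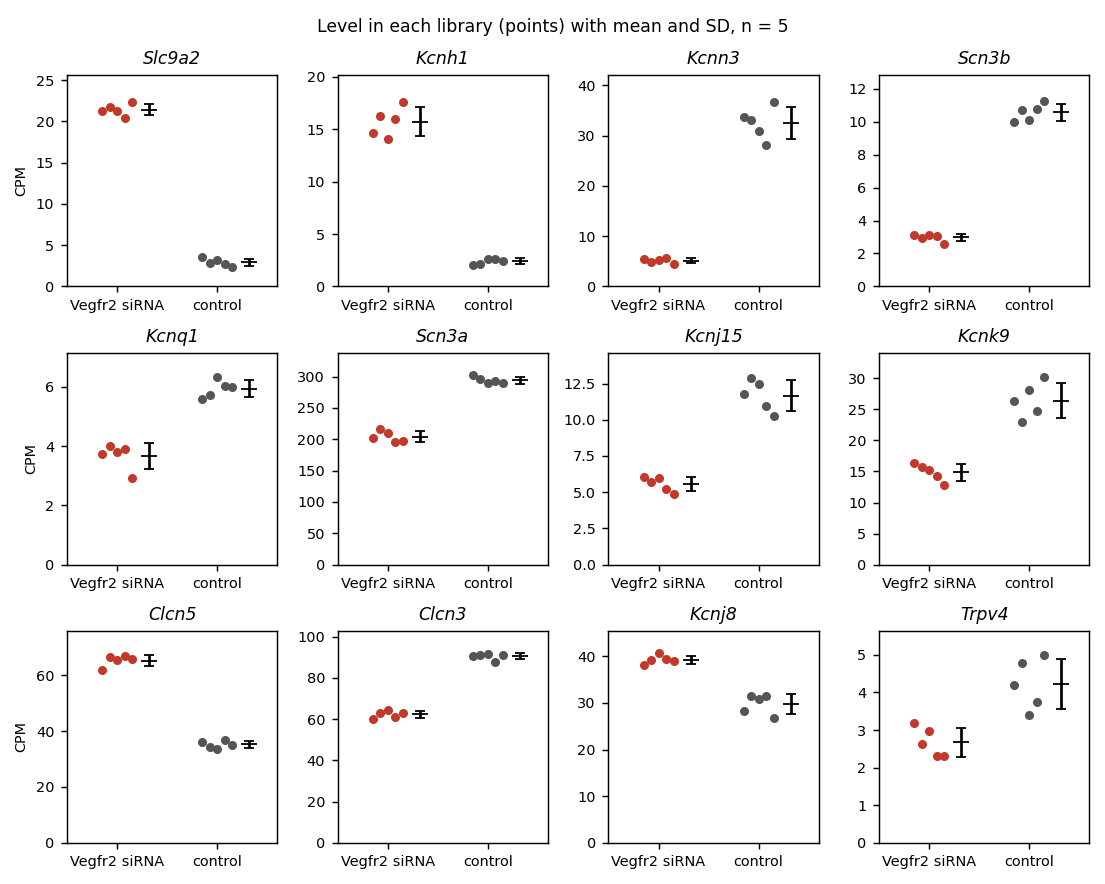
Level in CPM in each of the 5 siRNA (red, left) and 5 control (grey, right) libraries for 12 members, with mean and SD beside the points, and each axis starting at 0. In all 12 the groups' libraries do not overlap, and Slc9a2, Kcnh1, Clcn5 and Kcnj8 are higher in siRNA cells while the other 8 are lower.

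Among the sodium/proton exchangers, the 6 tested of 8 in the table split evenly, with 3 higher and 3 lower. Slc9a2 encodes NHE2, an exchanger of the plasma membrane best known from stomach and intestinal epithelium, and lies at chr1:40681712-40768885 on GRCm38.p6. It stood at 21.3, 21.7, 21.2, 20.5 and 22.3 CPM in the siRNA libraries and 3.52, 2.84, 3.17, 2.71 and 2.30 CPM in the control libraries. The lowest siRNA library was several times above the highest control library, and the means of 21.4 ± 0.691 CPM in siRNA cells and 2.91 ± 0.465 CPM in control cells gave a 7.35-fold difference and a log2 fold change of 2.88 (SE 0.082), the largest rise of any member.

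Slc9a8 (NHE8), found in the Golgi apparatus and at epithelial surfaces, rose (log2 fold change 0.39, SE 0.051, adjusted p = 6.22e-09). Slc9a9 (NHE9), of endosomes, had a log2 fold change of −0.35 with an SE of 0.07 (adjusted p = 2.05e-05), and Slc9a5 (NHE5), best known from brain, one of −0.37 with an SE of 0.059 (adjusted p = 4.40e-07). For all 3 of these genes the libraries of the groups did not overlap. Slc9a3, the intestinal and renal NHE3, and Slc9a7 were under the filter. The NHE3 scaffolds split as well. Slc9a3r2 (NHERF2) rose to 175 ± 6.05 CPM in siRNA cells, against 148 ± 1.80 CPM in control cells, a log2 fold change of 0.24 with an SE of 0.026 (adjusted p = 9.35e-11), whereas Slc9a3r1 (NHERF1) had 2.57 ± 0.331 CPM in siRNA cells and 3.79 ± 0.210 CPM in control cells and a log2 fold change of −0.56 with an SE of 0.12 (adjusted p = 9.67e-05).

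The TRP channels that passed all fell, each by less than 2-fold. Of 16 TRP channel genes 9 were tested, of which 0 rose, 6 fell and 3 did not pass, against 36.1% and 35.2% of all genes called upward and downward. The count of upward TRP genes was also 0 in edgeR at an unadjusted p under 0.05, with DESeq2 and with limma-voom. Trpv4, a channel opened by swelling, warmth and flow in endothelium, had 3.18, 2.63, 2.96, 2.30 and 2.31 CPM in the siRNA libraries and 4.19, 4.78, 3.39, 3.75 and 4.99 CPM in the control libraries. The siRNA libraries were all lower, and the log2 fold change was −0.66 with an SE of 0.13 (adjusted p = 1.73e-05). Trpc6, opened by diacylglycerol, fell without overlap of the libraries (log2 fold change −0.13, SE 0.044, adjusted p = 0.00734). So did Trpc1, a subunit that joins other TRPC pores (log2 fold change −0.39, SE 0.09, adjusted p = 0.000171). Trpm7, which passes magnesium and carries its own kinase domain, fell to 169 ± 5.93 CPM in siRNA cells, against 188 ± 5.78 CPM in control cells, a log2 fold change of −0.16 with an SE of 0.027 (adjusted p = 1.79e-06). Reads of Trpc6 were divided with other genes in 7 libraries. The fall of Trpc2 is uncertain, because all of its exon bases are shared with Xndc1 and Xntrpc, and its call (log2 fold change −0.28, adjusted p = 0.0232) was lost without control replicate 2 or 5 or siRNA replicate 2 or 5, with adjusted p between 0.0559 and 0.1003. Trpm4, Trpm3 and Trpv2 had log2 fold changes of −0.07, −0.24 and 0.11 and did not pass.

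The mechanically gated Piezo channels were both abundant and moved apart. Piezo1, which mouse lymphatic valves need in order to form, stood at 464, 467, 428, 435 and 455 CPM in the siRNA libraries and 363, 394, 352, 363 and 375 CPM in the control libraries. Its siRNA libraries were all above its control libraries, and the log2 fold change was 0.28 with an SE of 0.028 (adjusted p = 6.43e-11). Its reads were divided with other genes in all 10 libraries, and 24.6% of its exon bases are shared with Ctu2 on the opposite strand, so its level is uncertain to that extent, since no strand setting is stated. Piezo2, the touch channel of sensory neurons, averaged 235 ± 5.38 CPM in siRNA cells and 265 ± 6.96 CPM in control cells, and fell by 0.18 on the log2 scale (SE 0.025, adjusted p = 4.20e-08), without overlap.

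Store-operated calcium entry runs through Orai pores that open when STIM proteins sense that the endoplasmic reticulum has lost calcium. Orai1 had 24.2 ± 1.45 CPM in siRNA cells and 23.7 ± 1.65 CPM in control cells (log2 fold change 0.03, adjusted p = 0.621), which did not pass. Orai2 had 45.1 ± 1.41 CPM in siRNA cells and 53.5 ± 2.00 CPM in control cells and fell by 0.25 on the log2 scale (adjusted p = 1.37e-07), and Orai3 had 27.4 ± 1.06 CPM in siRNA cells and 22.4 ± 1.49 CPM in control cells and rose (log2 fold change 0.29, SE 0.049, adjusted p = 1.70e-06). The sensors Stim1 and Stim2, which the symbol pattern does not take, both fell, by 0.34 (adjusted p = 2.07e-10) and 0.32 (adjusted p = 1.58e-11) on the log2 scale. Their partners Saraf and Stimate had log2 fold changes of −0.06 and 0.07 and did not pass.

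Voltage-gated calcium channels were near the limit of detection. Of 7 pore genes 3 were tested and 0 passed in edgeR (also 0 at an unadjusted p under 0.05, with DESeq2 and with limma-voom), with log2 fold changes of 0.25 (edgeR adjusted p = 0.176) for Cacna1a, 0.50 (edgeR adjusted p = 0.105) for Cacna1b and −0.16 (edgeR adjusted p = 0.397) for Cacna1i. Cacna1b passed without control replicate 5 (log2 fold change 0.74, adjusted p = 0.0275). Cacna1c, the L-type channel of heart and smooth muscle, had 22 counts in the siRNA libraries together and 26 in the control libraries together and was not tested. Of the auxiliary subunits, Cacna2d1, an alpha2delta subunit that raises the number of channels at the surface, fell to 20.4 ± 1.23 CPM in siRNA cells, against 23.0 ± 0.849 CPM in control cells with overlapping libraries (log2 fold change −0.17, adjusted p = 0.00277). Cacnb4 fell to 0.384 ± 0.129 CPM in siRNA cells, against 0.735 ± 0.164 CPM in control cells (log2 fold change −0.92, adjusted p = 0.00579), with 15.99% of its exon bases shared with another annotated gene. Cacnb3 had a log2 fold change of 0.16 (edgeR adjusted p = 0.0567) and did not pass, but it did without control replicate 2 or 3 or siRNA replicate 5, with adjusted p between 0.0147 and 0.0337.

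In the ClC family a rise and a fall stood out among the proton-coupled chloride exchangers of endosomes. Clcn5, mutated in Dent disease in humans, stood at 61.8, 66.7, 65.4, 66.9 and 65.8 CPM in the siRNA libraries and 36.3, 34.4, 33.6, 37.0 and 34.9 CPM in the control libraries. Every siRNA library was above every control library, and the log2 fold change was 0.89 with an SE of 0.037 (adjusted p = 3.14e-24). Clcn3 stood at 60.1, 63.2, 64.2, 61.3 and 62.9 CPM in the siRNA libraries and 90.4, 91.2, 91.5, 88.0 and 91.0 CPM in the control libraries. Here the siRNA libraries were all lower, and the log2 fold change was −0.54 with an SE of 0.031 (adjusted p = 1.30e-19). Clcn4, which pairs with Clcn3 (log2 fold change −0.24, SE 0.033, adjusted p = 1.25e-08), and Clcn7, the lysosomal exchanger (log2 fold change −0.16, SE 0.032, adjusted p = 2.15e-05), also fell. Clcn2, a chloride channel of the plasma membrane, and Clcn6, of late endosomes, had log2 fold changes of −0.18 (edgeR adjusted p = 0.191) and 0.09 (edgeR adjusted p = 0.0509) and did not pass. Clcn6 passed without control replicate 1, 2 or 5 or siRNA replicate 4 or 5, with adjusted p between 0.0251 and 0.0432.

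The anoctamins hold calcium-activated chloride channels and lipid scramblases. Ano1 (TMEM16A), the calcium-activated chloride channel, rose to 2.21 ± 0.338 CPM in siRNA cells, against 0.835 ± 0.188 CPM in control cells (SD, n = 5 each), a log2 fold change of 1.39 with an SE of 0.19 (adjusted p = 1.51e-08). Its siRNA libraries ran from 1.87 CPM upward and its control libraries reached 1.00 CPM. Ano6 (TMEM16F), the scramblase that exposes phosphatidylserine, averaged 201 ± 5.49 CPM in siRNA cells and 212 ± 4.43 CPM in control cells and fell by 0.08 on the log2 scale (adjusted p = 0.00474). Ano10 rose (log2 fold change 0.07, adjusted p = 0.0451), a call that was lost without any of control replicates 1 to 3 or siRNA replicates 1 to 4 (adjusted p between 0.0505 and 0.0983). Ano8, which tethers the endoplasmic reticulum to the plasma membrane, had a log2 fold change of 0.08 (edgeR adjusted p = 0.16) and did not pass.

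The pattern also took genes whose products are not channels. Trpc4ap, named for binding Trpc4 and a substrate receptor of a ubiquitin ligase, rose to 157 ± 2.88 CPM in siRNA cells, against 109.9 ± 3.52 CPM in control cells (SD, n = 5 each), a log2 fold change of 0.51 with an SE of 0.027 (adjusted p = 1.00e-20). Its libraries did not overlap. Trpc5os and Kcnrg, which carry channel names without being pores, were under the filter.

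**Figure D4:**
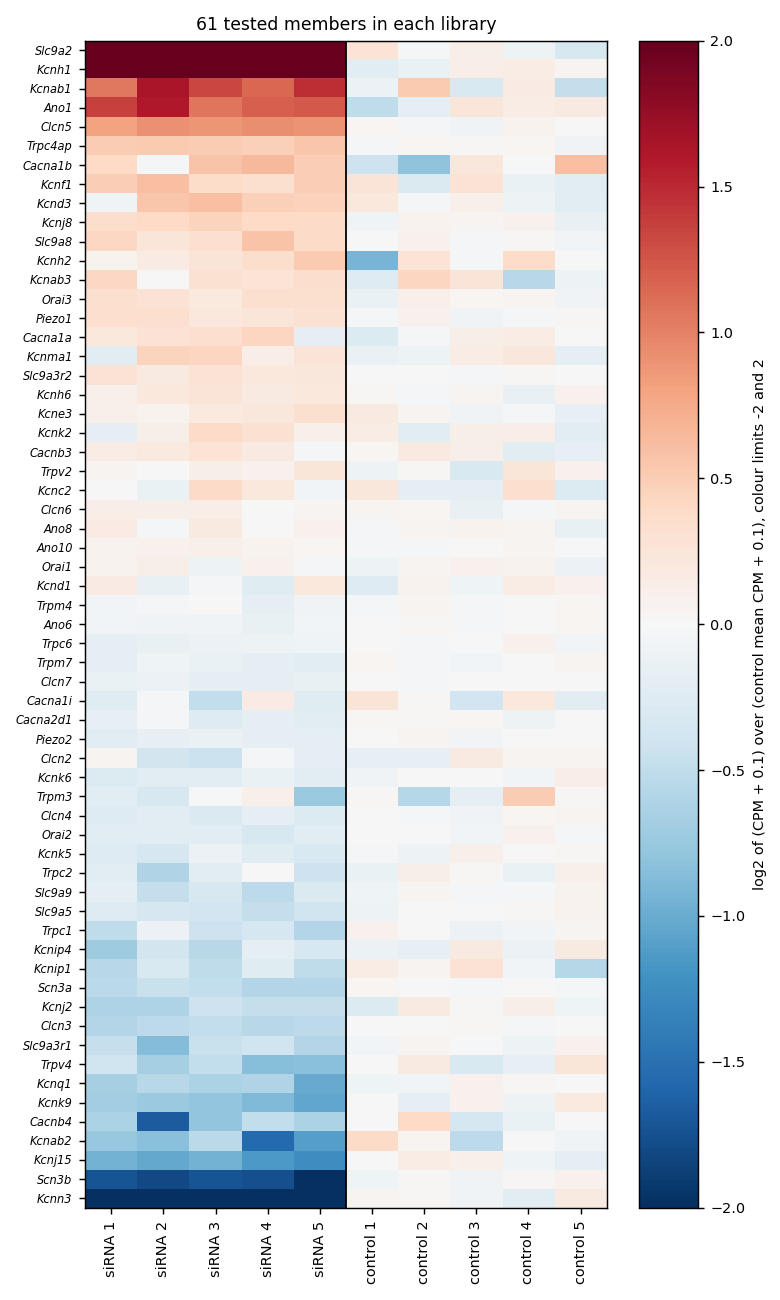
Log2 ratio of each library to the control mean, computed on CPM with 0.1 added, for 61 tested members (rows, ordered by change) in the 5 siRNA (left) and 5 control (right) libraries, with colours limited at −2 and 2. The rows at the top (Slc9a2, Kcnh1, Kcnab1, Ano1, Clcn5) and at the bottom (Kcnn3, Scn3b, Kcnj15) keep their colour in every siRNA library, and rows in the middle are pale in all libraries.

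Members with more reads were called more often, though a call depends on the size of a change as well as on its precision. Of the 41 tested members with at least 5 CPM on average, 36 were called, and of the 25 under 5 CPM, 13 were. Among all genes tested 71.3% were called, and their shares above and below 5 CPM were not computed. The 90 members under the filter had at most 91 counts over the 10 libraries together, and 52 of them had at most 10. None of the 90 was at 0 in every library, but genes without any counts may have been left out of the deposited table, whose filtering is not stated. Their counts were too few for the test, and no difference is reported for channels such as the smooth muscle subunit Kcnmb1, the brain channel Scn1a or the capsaicin receptor Trpv1.

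Among the members, 10 tested genes carry the 7-base word GTAAAGA in their longest annotated 3′ UTR, a word that went with lower fold changes across all genes in earlier results of these data, and it occurs once in Kdr. The sites of the 4 carriers that fell by more than 0.5 on the log2 scale are shown, from GENCODE M21 transcripts and written 5′ to 3′ with the word in capitals. They lie in genes on chromosomes 2 (Scn3a), 15 (Kcnk9), 8 (Clcn3) and 11 (Kcnj2).
Scn3a: gttatgtgcctGTAAAGActcctctaata
Kcnk9, first match: tgaggtcatgtGTAAAGAatataggtctt
Kcnk9, second match: gcacagagcttGTAAAGAttcccgtgttc
Clcn3, first match: ctgccgtgactGTAAAGAggaggaaggag
Clcn3, second match: tggaggtatgaGTAAAGAttaccatgggc
Kcnj2: atgaagatgcaGTAAAGAgtgggggtgac
Of the 10 carriers, 0 rose, 7 fell and 3 did not pass, with a median log2 fold change of −0.24 and a range from −0.83 to 0.24. The upward count was also 0 in edgeR at an unadjusted p under 0.05, with DESeq2 and with limma-voom. The 7 that fell also include Kcnk5, Clcn7 and Cacna2d1, and Cacna1i, Kcnma1 and Trpm3 did not pass. Of the 56 tested members without the word, 18 rose, 24 fell and 14 did not pass, with a median of 0.05. Among the other genes tested, 1517 carried the word (364 rose, 780 fell, median −0.13) and 10241 did not (3917 rose, 3370 fell, median 0.02). Kcnn3, Scn3b and Kcnj15, which fell by at least 2-fold, have no match. The 3′ UTR searched was 380 bases long for Kcnn3 and 3531 for Kcnj15, against 11030 for the carrier Kcnk9. The word was chosen with its lower fold changes in these same data known, so the counts of carriers are a description and nothing is read from them. The counts also take no account of 3′ UTR length. Whether the word plays a part in any of these differences was not tested.

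Related ion transport genes that the symbol pattern does not take were followed in 5 lists of 130 genes. Of these, 80 were tested, and 27 rose, 35 fell and 18 did not pass, with a median log2 fold change of −0.02. Among all genes tested, 71.3% were called, 36.1% upward and 35.2% downward. The counts of each list are given as a description beside these shares, and nothing is read from them. Of the calcium stores, pumps and exchangers, 10 rose and 8 fell of 21 tested. Atp2b1, the main calcium pump of the plasma membrane, fell to 185 ± 5.10 CPM in siRNA cells, against 272 ± 8.19 CPM in control cells (log2 fold change −0.55, adjusted p = 1.22e-22), while Atp2a2, the calcium pump of the endoplasmic reticulum, rose (log2 fold change 0.23, adjusted p = 1.05e-11) and Mcu, the mitochondrial calcium uniporter pore, rose too (log2 fold change 0.47, adjusted p = 1.22e-16). Of the other anion channels and chloride cotransporters, 10 rose and 11 fell of 23 tested. Clic5 fell to 223 ± 7.74 CPM in siRNA cells, against 299 ± 7.37 CPM in control cells (log2 fold change −0.42, adjusted p = 1.39e-18), and Slc12a4, a potassium-chloride cotransporter, rose (log2 fold change 0.43, adjusted p = 6.31e-15). Clca3a1, a marker of lymphatic endothelium in mice, fell to 12.9 ± 0.678 CPM in siRNA cells, against 35.6 ± 1.44 CPM in control cells (log2 fold change −1.46, adjusted p = 3.42e-27), with reads divided with other genes in 9 libraries.

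Of the other cation channels, 2 rose and 9 fell of 17 tested, where 36.1% of all genes were called upward and 35.2% downward. The fall of Hvcn1, the voltage-gated proton channel, by 0.77 on the log2 scale (adjusted p = 3.18e-09) is uncertain, because 44.2% of its exon bases are shared with another gene and its reads were divided in all 10 libraries. In sodium pump and acid-base transport, 5 rose and 5 fell of 15 tested. Chp2, a calcium-binding partner of sodium/proton exchangers, had the largest fall there, with 25 counts in the siRNA libraries together and 134 in the control libraries together (log2 fold change −2.41, adjusted p = 5.86e-10). The sodium bicarbonate cotransporter Slc4a7 rose (log2 fold change 0.33, adjusted p = 6.18e-12). The lactate and proton cotransporter Slc16a1 rose (log2 fold change 0.42, adjusted p = 6.75e-10).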

How the data were processed

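Poly(A) RNA was sequenced, per the labels' protocols. The deposited table, made by the authors, holds an estimated count, whole or fractional, for each of 16251 genes in each library, not normalized, with Entrez IDs and symbols. The submitters' processing notes name HISAT2 2.2.1, Bowtie2 2.4.5, RSEM 1.3.1 and GRCm38.p6. What each tool did is not given in the sources used here, nor are the gene models, strandedness or gene filtering. Counts were fractional for 10.5% to 11.3% of genes per library. No library repeats another of its group (chi-square per degree of freedom 1.50 to 3.47 over pairs).

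The estimated counts were rounded. The test used edgeR 4.0.16 under R 4.3.3 with TMM factors, filterByExpr (minimum count 10), group as the only term and the robust quasi-likelihood F test, with Benjamini-Hochberg adjustment over all 12161 genes tested and a threshold of 0.05. Every adjusted p printed for a gene is from edgeR unless another tool is named. CPM uses TMM-scaled library sizes, and the SE is the log2 fold change divided by the square root of F. RefSeq (GRCm38.p6) gave coordinates and promoters, and GENCODE M21 gave transcript lengths, shared exon bases and 3′ UTRs.

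The members and lists were chosen with earlier results of these data known. Genes named are Kcnh1, Kcnn3, Slc9a2 and Scn3b, the 12 largest rises and the 12 largest falls among called members of at least 1 CPM, the 2 most abundant members per length in each class, fixed names, and the 4 related genes per list with the smallest adjusted p. Other members are named as members of their class. A few genes under these rules are not reported here, though counts over a class or list include them. In simulated data for siRNA against control with 200 of 12161 genes changed, the test found 50% of the genes with a change of 1.1-fold and 82% of those with 1.25-fold. It found 92% of those with 1.5-fold and 100% of those with 2-fold, beside 11 false calls. In the real data 71.3% of genes were called. The Benjamini-Hochberg cutoff depends on the share of genes changed, so the simulated rates need not hold there. As alternatives, the fit was repeated with other factors (RLE, upper quartile), other tools (DESeq2 1.42.0, limma 3.58.1 with voom), other filters, a replicate block, glmTreat, and each library left out. Levels per length were repeated with mean transcript length and with total counts.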

Additional observations from a re-analysis of the deposited data

Results flagged for a closer look

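In 10 of 186 groups of 5 libraries examined, 1 library stood apart from the other 4 (gap above 0.71 of the range), where chance flags about 1 in 20. Among the members, siRNA replicate 4 was low for Ano6 (191 CPM, the next library at 202) and for Orai2 (42.6 CPM, next 45.7). The siRNA replicate 1 was low for Kcnd3 (2.74 CPM, next 4.02). The siRNA replicate 5 was low for Kcnq1 (2.92 CPM, next 3.72), and control replicate 4 was low for Cacna2d1 (21.5 CPM, next 23.0). The other 4 siRNA libraries of Kcnd3 lie above all of its control libraries. Outside the members, siRNA replicate 5 was low for the lymphatic regulator Prox1 (384 CPM, next 406), and siRNA replicate 3 was high for the synaptic gene Snap25 (2.74 CPM, next 2.04) and for the calcium sensor Stim2 (60.5 CPM, next 58.0). The muscle gene Tagln was high in siRNA replicate 4 (2.08 CPM, next 1.21), and the neuronal tubulin gene Tubb3 was low in control replicate 1 (8.17 CPM, next 9.22). None of these 10 genes changed its call when a single library was left out.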

How the results depend on the processing

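The 49 calls among members became 48 with RLE and with upper-quartile factors, 47 with DESeq2, 50 with limma-voom, 35 of 41 tested with a mean of at least 5 CPM, and 63 of 156 tested without a filter, where most added genes have few counts. Leaving out 1 library gave 48 to 50. Asking with glmTreat for more than 1.5-fold left 10 members (5 higher, 5 lower), against 8.56% of all genes, and 7 related genes (1 higher, 6 lower), because the test asks for a larger change. The replicate numbers did not pair the libraries (correlations of same-numbered deviations −0.0745 to 0.0198). A replicate block gave 49 member calls, 48 of them shared with the fit without it, and an Ano10 adjusted p of 0.064 and a Cacnb3 adjusted p of 0.0421. Ano10 also lost its call with DESeq2 and under 3 other settings, Trpc2 with DESeq2 (adjusted p = 0.0546), and Cacnb3 and Clcn6 gained one without a filter (Clcn6 also with limma-voom). Of members that were not called, Kcnd1 changed sign with upper-quartile factors (log2 fold change −0.012) and without 4 single libraries (−0.054 to 0.062 over all 10). The muscle marker Tagln changed sign without siRNA replicate 4 (−0.15 to 0.23 over all 10). Leaving out members with the 3′ UTR word (42 of 56 called) or with divided reads or shared exons (33 of 42) was chosen after seeing the data. With mean transcript length 8 of the 10 most abundant members per length were shared with the order given. Low counts limit the 90 members under the filter.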

Other observations

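Some ion transport genes with larger differences lie outside the rule for named genes and were chosen after their values were seen. Cftr, the cyclic AMP-gated chloride channel of epithelia, had 43.0 ± 2.86 CPM in siRNA cells and 24.4 ± 2.23 CPM in control cells. Every siRNA library was above every control library (log2 fold change 0.82, edgeR adjusted p = 3.21e-14). Pacc1, the proton-activated chloride channel, rose to 48.5 ± 0.501 CPM in siRNA cells, against 35.3 ± 0.979 CPM in control cells (log2 fold change 0.46, adjusted p = 1.77e-14). Atp2b4, a calmodulin-regulated calcium pump of the plasma membrane, stood at 18.3, 17.1, 16.8, 18.9 and 13.1 CPM in the siRNA libraries and 41.7, 42.4, 38.1, 37.5 and 50.5 CPM in the control libraries. It was lower in every siRNA library (log2 fold change −1.32, adjusted p = 4.07e-06), as was Atp2b1 of the same family. Car8, which resembles carbonic anhydrases without their activity, fell to 2.18 ± 0.502 CPM in siRNA cells, against 4.43 ± 1.18 CPM in control cells (log2 fold change −1.02, adjusted p = 1.59e-05). Among members under the filter, the inward rectifier Kcnj14 had 48 counts in the siRNA libraries together and 18 in the control libraries together, and the Kv4 partner Kcnip3 had 28 counts in the siRNA libraries together and 61 in the control libraries together, neither of them tested.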
